A study of Mus musculus with 24 samples.

Results

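The interferon-stimulated genes described here are 39 genes, listed by name for their known induction by interferons and read in 24 arrays of mouse colon. All 39 were found among the 18097 gene targets of the array table, which writes names in capitals (IRGM1, OASL2, BST2, IFITM3). The listed name matched for 36 of them, a synonym or gene identifier matched Isg15 and Irgm1, and the annotation of its probe matched Xaf1. A target was tested when its mean over all arrays lay above the median target (log2 6.54), which 29 of the 39 genes did. The other 10 (Ifih1, Oas1a, Oas3, Ifit1, Mx1, Mx2, Iigp1, Ifi44, Xaf1 and Rtp4) were too dim to be tested.

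Colon RNA was measured on single-colour Illumina bead arrays. The study set 6 arrays of APCMin/+ mice (ApcMin) given ATB-346 at 14.5 mg/kg and 6 of ApcMin mice given naproxen at 10 mg/kg against 8 of ApcMin mice given vehicle, and had 4 arrays of wild-type mice given vehicle. All mice carried the strain label C57Bl/6, were dosed by gavage for 7 days from an age of 6 weeks and were 14 weeks old at collection, 7 weeks after the last dose. The vehicle held 0.05% DMSO and 0.95% carboxymethylcellulose. ApcMin mice carry a truncating mutation in a single copy of the tumour suppressor gene Apc in all their cells, and most of their adenomas arise in the small intestine. The sources used here do not say whether the colon samples held adenomas. Naproxen is a non-steroidal anti-inflammatory drug that inhibits cyclooxygenases, and ATB-346 is a derivative of naproxen that releases hydrogen sulfide. No animals are named in the labels, so the spread behind each p-value may be partly technical.

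Interferons are secreted proteins that warn cells of infection. Type I interferons act through Ifnar1 and Ifnar2, the kinases Jak1 and Tyk2 and a complex that includes Stat2 and Irf9, which binds a promoter element called ISRE. Interferon gamma acts through its own receptor and a promoter element called GAS. In the intestine, interferon-stimulated genes are known for a standing baseline level that depends on the gut bacteria and on type I and type III interferons.

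The promoters of 6 members are shown because the results turn on these genes and because each holds one of these elements. They were read from RefSeq promoter windows (GRCm38.p6), which run from 250 bases before to 50 bases after a gene's start, and the 150 bases before the start are printed 5′ to 3′ along the gene's strand. Capitals mark matches on either strand to GAAA followed by any 2 bases and GAAA again, taken as the ISRE core, or to TTCNNNGAA, taken as GAS; both may overlap.
Isg15: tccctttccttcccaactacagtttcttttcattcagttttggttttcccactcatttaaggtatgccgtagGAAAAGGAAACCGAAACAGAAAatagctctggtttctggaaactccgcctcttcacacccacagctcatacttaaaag
Rsad2: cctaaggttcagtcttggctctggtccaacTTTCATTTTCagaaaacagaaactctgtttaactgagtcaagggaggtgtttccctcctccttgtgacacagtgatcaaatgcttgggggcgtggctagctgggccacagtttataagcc
Bst2: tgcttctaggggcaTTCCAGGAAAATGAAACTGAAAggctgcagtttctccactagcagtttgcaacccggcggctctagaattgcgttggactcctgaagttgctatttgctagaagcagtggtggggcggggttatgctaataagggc
Irgm1: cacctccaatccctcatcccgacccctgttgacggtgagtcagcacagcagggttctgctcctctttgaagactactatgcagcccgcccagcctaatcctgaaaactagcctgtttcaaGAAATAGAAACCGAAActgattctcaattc
Psmb8: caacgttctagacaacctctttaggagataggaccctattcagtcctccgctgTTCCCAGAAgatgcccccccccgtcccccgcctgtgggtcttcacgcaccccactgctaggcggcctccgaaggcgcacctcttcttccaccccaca
Irf1: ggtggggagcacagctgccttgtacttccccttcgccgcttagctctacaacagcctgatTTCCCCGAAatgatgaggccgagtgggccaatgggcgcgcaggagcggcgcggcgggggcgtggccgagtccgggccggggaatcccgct
These stretches lie at chr4:156200819-156200968 (minus strand) for Isg15, chr12:26456453-26456602 (minus) for Rsad2, chr8:71537473-71537622 (minus) for Bst2, chr11:48871421-48871570 (minus) for Irgm1, chr17:34198045-34198194 (plus) for Psmb8 and chr11:53769864-53770013 (plus) for Irf1. Isg15 holds 3 overlapping ISRE matches, the first beginning at position -78 and the last at -66 relative to the gene's start. Bst2 holds 2 that overlap each other and a GAS match. Irgm1 has 2 overlapping ISRE matches close to its start, while Psmb8 and Irf1 each have a GAS match and no ISRE match in these bases.

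Windows were listed for 28 of the 39 members. An ISRE match lay in the windows of 15 of these 28 genes (53.6%), against 3.99% of all 27025 genes with a window. For GAS the share was 32.1% of the members (9 of 28), against 9.55% of all genes. Psmb9 and Tap1 lie head to head, so their windows share 275 bases and are not independent. A match is a description of the letters and not of binding, and its absence from this window says nothing about the factor.

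Raw median intensities ran from 81.4 to 102.9 units per array and were not even between replicate numbers. Arrays with replicate numbers 5 to 8 lay at 90.7 to 102.9, and those numbered 1 to 4 at 81.4 to 99.0, with overlap. The 8 measured colon epithelium markers averaged between 10.99 and 12.16 (log2) on every array, and 7 of the 8 lay above the filter. In whole tissue, fewer cells of a type and less RNA per cell cannot be told apart. Levels are log2 normalized signals throughout. A probe's signal depends on its sequence, so levels are compared between arrays and not between genes.

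Among the sensors of foreign nucleic acid, Ddx58 (RIG-I), which detects viral RNA, lay between 6.94 and 7.53 over all 24 arrays. Dhx58, a regulator of RIG-I and MDA5, ranged from 6.75 to 7.50, and Zbp1, a sensor of Z-form nucleic acid, from 6.49 to 6.88. The RNA sensor Ifih1 (MDA5) missed the filter with a mean of 6.41. Its highest values were 7.03 in ATB-346 replicate 5, 6.78 in naproxen replicate 6 and 7.18 in vehicle replicate 8, against 6.36 in wild type. Those ApcMin arrays carry replicate numbers above 4, which no wild-type array does. In replicates 1 to 4 the Ifih1 means were 6.30 with ATB-346, 6.14 with naproxen, 6.07 with vehicle and 6.21 in wild type.

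The transcription factors differed in how tightly they were held. Stat2, a subunit of the factor that binds ISREs, ran from 7.18 to 7.36 with ATB-346, 7.15 to 7.36 with naproxen, 7.17 to 7.65 with vehicle and 7.18 to 7.40 in wild type. Irf7, the factor that amplifies type I interferon production, spread far more widely in every group. Its lowest, median and highest levels were 7.32, 8.03 and 8.70 with ATB-346, 7.70, 8.11 and 9.00 with naproxen, and 7.21, 7.97 and 8.46 with vehicle. The 4 wild-type arrays read 7.68, 7.24, 7.60 and 8.58. The groups overlapped over most of their range.

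Isg15, a ubiquitin-like protein that is attached to other proteins and also secreted, was similarly variable. Its lowest, median and highest levels were 7.80, 8.00 and 8.35 with ATB-346, 7.30, 7.99 and 8.97 with naproxen, and 7.74, 8.17 and 8.74 with vehicle, while wild-type arrays read 8.04, 7.61, 8.20 and 8.01. The naproxen arrays were the most spread and held both the lowest and the highest value of the 24. Usp18, which removes Isg15 from proteins and dampens the type I receptor, ran from 7.31 to 7.59 with ATB-346, 7.05 to 7.98 with naproxen, 6.90 to 7.63 with vehicle and 6.95 to 7.53 in wild type.

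The antiviral effectors overlapped between all groups. Ifit2, which binds viral RNA together with other Ifit proteins, averaged 7.79 ± 0.18 with ATB-346, 7.80 ± 0.22 with naproxen (SD, n = 6 each), 7.75 ± 0.21 with vehicle (n = 8) and 7.66 ± 0.28 in wild type (n = 4). Its relative Ifit3 averaged 7.76 ± 0.32, 7.98 ± 0.32, 7.92 ± 0.16 and 7.83 ± 0.24 in the same order of groups. The untested effectors Ifit1, Oas3, Mx1 and Mx2 stayed between 5.69 and 6.58 on every array, near the lowest normalized value of 5.65. Mx1 and Mx2 block viral nucleocapsids, and C57BL/6 mice are known to carry a defective Mx1. Oas1a, an activator of the RNase L pathway, missed the filter too, and because it has near-identical gene copies its signal may not be its own.

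The GTPases that attack vacuoles of intracellular pathogens included a gene with a sharp split. Irgm1, a regulator of these GTPases, had lowest, median and highest levels of 10.31, 10.46 and 10.95 with ATB-346, 10.17, 10.49 and 10.97 with naproxen, and 10.24, 10.64 and 10.98 with vehicle. The wild-type arrays read 10.35, 10.27, 10.49 and 10.54. In each ApcMin group the values fell into a high and a low set, which follow the replicate numbers. Igtp, another vacuole GTPase, and the guanylate-binding proteins Gbp2 and Gbp3 overlapped between the replicate ranges.

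**Figure D1:**
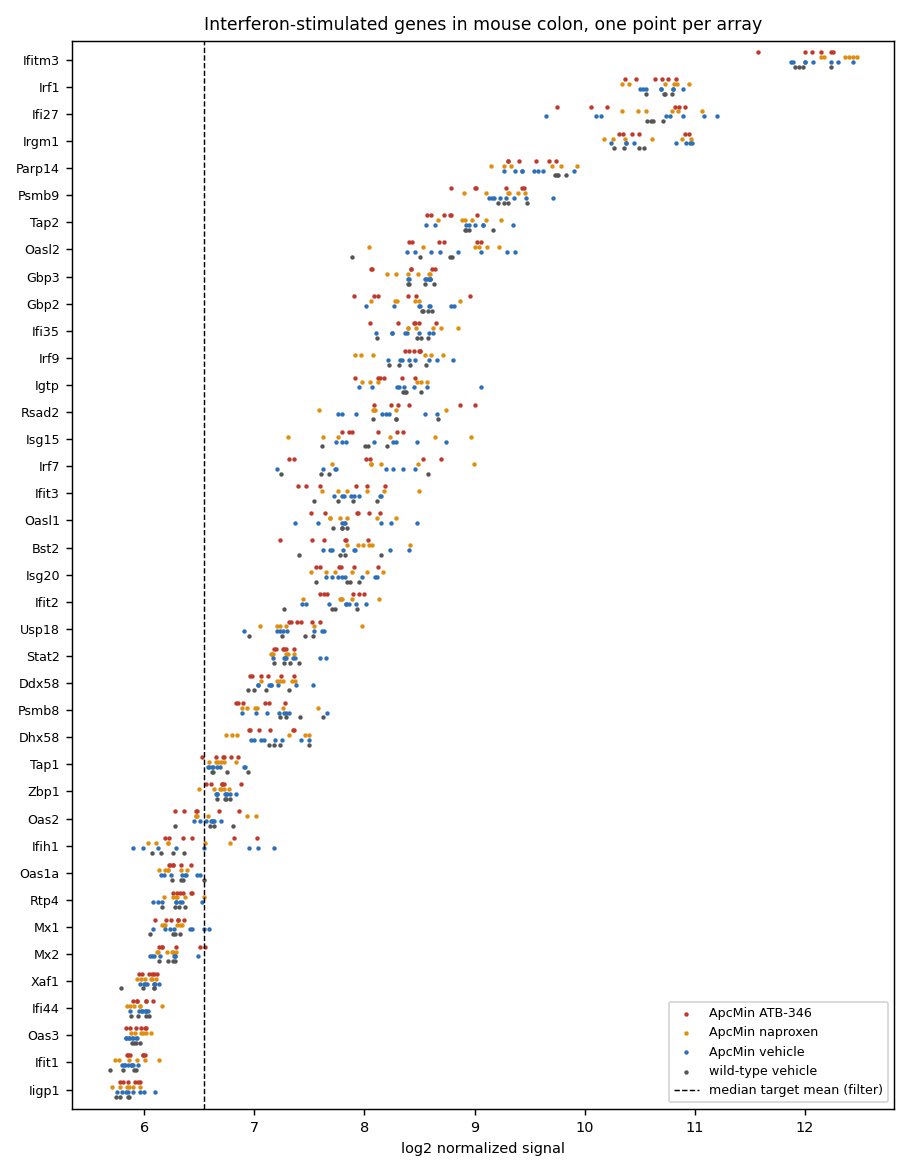
Log2 normalized signal of all 39 members (horizontal axis), with a point for each of 24 arrays, coloured by group, in rows ordered by mean signal. The dashed line is the filter at 6.54; 10 members lie below it by their mean, and in every tested row the groups overlap.

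The first question was whether the drugs left a mark on these genes 7 weeks after dosing, and ATB-346 left none that passed the test. Of 29 tested members 0 passed at an adjusted p under 0.05 (limma, Benjamini-Hochberg over 9048 targets), against 0% of all targets, and 0 had an unadjusted p under 0.05, against 6.98% of all targets. The differences leaned downwards: 23 members were lower and 6 higher than with vehicle. The member median was -0.07 on the log2 scale, against 0.01 for all targets, of which 55.4% were above 0. No member had ATB-346 arrays that stood clear of the vehicle arrays, against 0.21% of all targets.

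Of the 4 antigen-processing members 3 had values below vehicle after ATB-346, with 0 passing. Tap2, which carries peptides into the endoplasmic reticulum for MHC class I, had lowest, median and highest levels of 8.57, 8.75 and 9.02 with ATB-346, against 8.56, 8.98 and 9.35 with vehicle. The ranges overlapped, although 5 of 6 ATB-346 arrays lay below the vehicle mean. The difference was -0.20 (95% interval -0.42 to 0.02, limma adjusted p = 0.779). Psmb8, a catalytic subunit of the immunoproteasome that cuts those peptides, read 6.83, 7.00 and 7.28 with ATB-346, against 6.89, 7.25 and 7.66 with vehicle, a difference of -0.21 (-0.44 to 0.03, adjusted p = 0.805). Both differences shrank to -0.13 without vehicle replicates 1 and 2, where B cell and MHC class II markers also stood high. Psmb9 and Tap1, partners of these genes, did not pass either.

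The 4 tested GTPases had values below vehicle after ATB-346, with a median difference of -0.17, and 0 passed. With a term in the model for the replicate range, numbers 5 to 8 against 1 to 4, Irgm1 was 0.03 above vehicle and the other 3 below. Gbp3 ran from 8.05 to 8.64 with a median of 8.42 after ATB-346, against 8.39 to 8.59 with a median of 8.57 with vehicle. Its difference was -0.16 (-0.35 to 0.02, adjusted p = 0.798), and -0.10 without ATB-346 replicate 2. The ATB-346 arrays were more spread on both sides.

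Rsad2 went the other way. This gene encodes viperin, an enzyme that makes a chain-terminating nucleotide against viruses. Its lowest, median and highest levels were 8.08, 8.35 and 9.01 with ATB-346, 7.59, 8.09 and 8.74 with naproxen, and 7.76, 8.18 and 8.66 with vehicle. The difference from vehicle was 0.33 (-0.03 to 0.69, adjusted p = 0.79), with 5 of 6 arrays above the vehicle mean and replicates 4 and 6 the highest. Among replicates 1 to 4 alone the ATB-346 and vehicle means for Rsad2 differed by 0.0021, and among replicates 5 and up by 0.72. The difference between these values did not pass (limma interaction, adjusted p = 1.00). Usp18, Ifit2 and Irf7, the other members with the smallest p among the higher ones, differed by 0.09, 0.03 and 0.05.

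Bst2 (tetherin), which holds budding viruses at the cell surface, also had differences of unlike size in the replicate ranges. It read 7.23, 7.73 and 8.03 with ATB-346 (lowest, median, highest), 7.84, 8.02 and 8.41 with naproxen, and 7.62, 7.86 and 8.41 with vehicle. The difference between ATB-346 and vehicle was -0.23 (-0.51 to 0.05, adjusted p = 0.817), and -0.14 without ATB-346 replicate 2. It was -0.51 within replicates 1 to 4 and 0.17 within replicates 5 and up, and the limma interaction had an adjusted p of 1.00 over all targets. Of all targets, 0% passed this interaction test for either drug.

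Naproxen also moved no member past the threshold. Of the 29 members 0 passed, against 0% of all targets, and 1 had an unadjusted p under 0.05, against 8.72% of all targets. There were 17 members lower and 12 higher, with a median of -0.01 for the members and 0.01 for all targets, of which 53.5% were above 0. The sign of the member median turned in other settings: it was 0.06 in replicates 1 to 4 only and 0.03 without naproxen replicate 4. No member had groups that stood clear of each other, against 0.133% of all targets. The comparison uses the same 8 vehicle arrays as that of ATB-346, so the values of both drugs share their controls.

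The member with the smallest p was Ifitm3, a membrane protein that keeps viruses from fusing with endosomes. Its lowest, median and highest levels were 12.15, 12.39 and 12.48 with naproxen, against 11.88, 12.04 and 12.44 with vehicle. All 6 naproxen arrays lay above the vehicle mean, but the ranges overlapped. The difference was 0.23 (0.02 to 0.44), with a limma p of 0.0361 unadjusted and 0.564 adjusted. Ifi35, which interacts with innate signalling proteins, was 0.19 higher (-0.02 to 0.40, adjusted p = 0.599), also with 6 of 6 arrays above the vehicle mean.

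Of the transcription factors, Stat2 differed by -0.13 with naproxen (-0.27 to 0.01, adjusted p = 0.588). All 6 naproxen arrays were under the vehicle mean, and without vehicle replicates 1 and 2 the difference was -0.05. Irf9, the DNA-binding partner of Stat2, differed by -0.17 (-0.41 to 0.07), by -0.10 without the same vehicle arrays and by -0.09 without naproxen replicate 6. Irf7 differed by 0.30 (-0.23 to 0.82, adjusted p = 0.74), and by 0.15 without naproxen replicate 1, its highest array. The remaining members named by the rule, Bst2 (0.14), Gbp3 (-0.11) and Zbp1 (-0.06), had intervals that crossed 0.

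Setting the drugs against each other asks whether the hydrogen sulfide-releasing compound and its parent differ, at doses that differ in mg/kg. Again 0 of 29 members passed (0% of all targets), and 2 had an unadjusted p under 0.05, against 6.48% of all targets. Members were lower with ATB-346 in 21 cases and higher in 8, with a median of -0.06, while 51.2% of all targets were above 0. In replicates 5 and 6 alone 10 members were lower and the median was 0.04. No member had groups that stood clear of each other, against 0.232% of all targets.

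The members with an unadjusted p under 0.05 were Ifitm3 and Bst2, which both encode membrane proteins that act against enveloped viruses. Ifitm3 differed by -0.29 between ATB-346 and naproxen (-0.52 to -0.06, limma adjusted p = 0.727), with all 6 ATB-346 arrays below the naproxen mean. ATB-346 replicate 6, at 11.58, was far below the rest of its group, and without it the difference was -0.19. Bst2 differed by -0.37 (-0.67 to -0.06, adjusted p = 0.727), again with 6 of 6 arrays below the naproxen mean. Within replicates 1 to 4 Bst2 differed by -0.57, and within replicates 5 and 6 by 0.04; the difference between these values was not tested. Rsad2 differed by 0.34 (-0.05 to 0.72) and Tap2 by -0.22 (-0.45 to 0.01). Irf9 (0.15), Usp18 (0.04), Zbp1 (0.03) and Ifi35 (-0.17) also had intervals that included 0. These intervals do not show that the compounds act alike.

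The comparison of genotypes asked how ApcMin colon differed from wild-type colon under vehicle. It passed 0 of 29 members, against 0% of all targets, and 0 members had an unadjusted p under 0.05, against 6.43% of all targets. There were 16 members higher and 13 lower in ApcMin, with a median of 0.04, while the median of all targets was -0.03 and 41.1% of them were above 0. With the term for the replicate range the split was 21 higher and 8 lower. Leaving out single arrays gave 10 to 18 members lower (18 without wild-type replicate 2) and a median of -0.01 to 0.06, so the direction of the median rested on that array. No member's groups stood clear of each other, against 0.553% of all targets.

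Oasl2, a relative of the oligoadenylate synthetases, read 8.39, 8.77 and 9.36 in ApcMin (lowest, median, highest), against 8.50, 7.88, 8.80 and 8.78 in the wild-type arrays. Its difference of 0.35 (-0.11 to 0.81, limma adjusted p = 0.741) was 0.15 without wild-type replicate 2, the array at 7.88, and 0.13 with the term for the replicate range. Parp14, an ADP-ribosyltransferase of interferon responses, read 9.27, 9.48 and 9.91 in ApcMin, against 9.83, 9.74, 9.76 and 9.75 in wild type. The wild-type values for Parp14 lay close together, and 7 of 8 ApcMin arrays fell below their mean. The difference was -0.25 (-0.52 to 0.02, adjusted p = 0.738), and -0.11 with that term.

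All wild-type arrays carry the numbers 1 to 4, whereas 4 of the 8 ApcMin vehicle arrays are numbered 5 to 8. Irgm1 differed by 0.23 (-0.12 to 0.58, adjusted p = 0.747) over all arrays and by -0.05 with the term. Psmb8 differed by -0.17 (-0.04 with the term), Rsad2 by -0.17 (-0.09), Ddx58 by 0.11 (0.01), Stat2 by 0.08 (0.12) and Dhx58 by -0.08 (0.02). The intervals of the values without the term all crossed 0. With the term, 2 of the 4 antigen-processing members and 6 of the 10 antiviral effectors had values above wild type, against 0 and 8 without it, and 0 passed in either set.

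**Figure D2:**
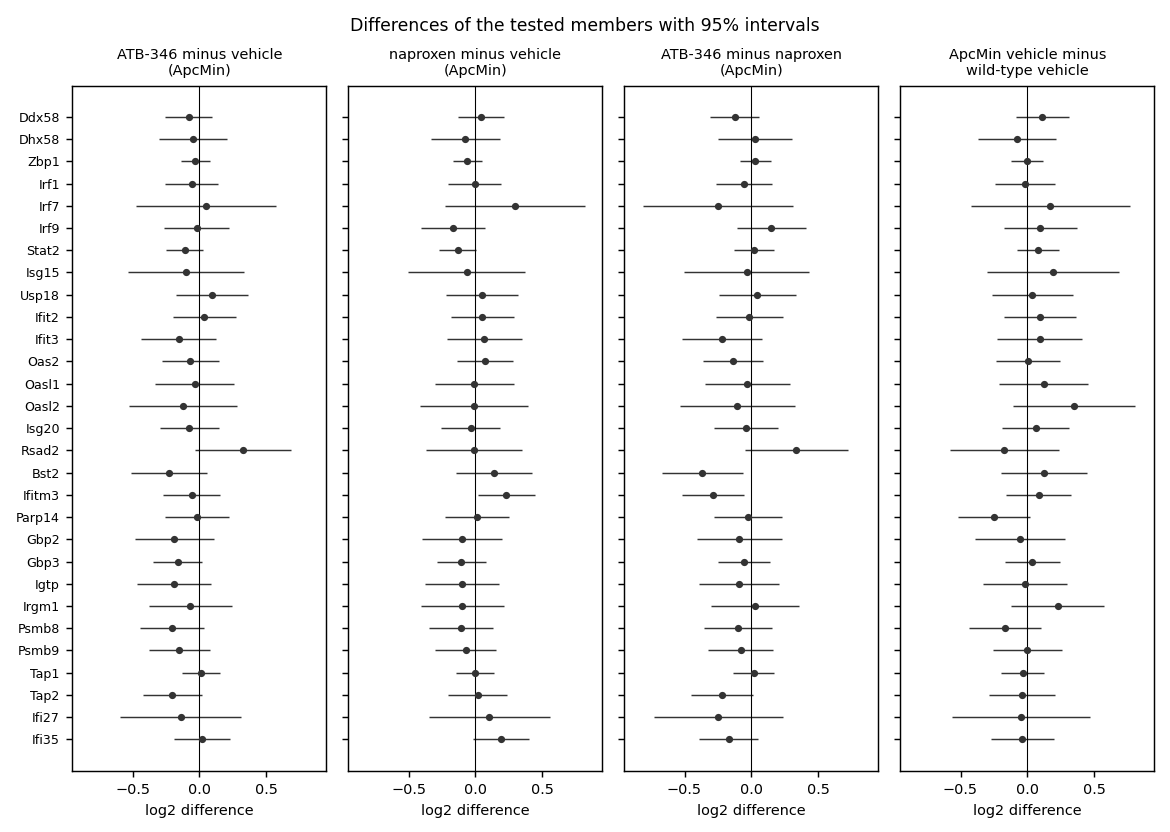
Log2 differences of the 29 tested members in the 4 comparisons (horizontal axes), ordered by role from the sensors to the other induced genes, with points for the estimate and lines for limma's 95% interval. Nearly all lines cross 0; Ifitm3 (0.23) with naproxen and Ifitm3 (-0.29) and Bst2 (-0.37) between the drugs do not, and none of these passed after adjustment.

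More members passed between ranges of replicate numbers than in any drug or genotype comparison. Within the ApcMin groups, 8 arrays are numbered 5 to 8 (2 with ATB-346, 2 with naproxen, 4 with vehicle) and 12 are numbered 1 to 4. The labels do not say what the numbers mean, and the split was known from an earlier result on these data. Of the 29 members 10 passed between the ranges (6 higher and 4 lower in replicates 5 to 8), against 37.1% of all targets, 14.7% of them higher and 22.4% lower. The share of members called was close to that of all targets. The member median was -0.09 and that of all targets -0.07.

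Irgm1 was the tested member with the clearest split. Its lowest, median and highest levels were 10.84, 10.94 and 10.98 in replicates 5 to 8, against 10.17, 10.37 and 10.61 in replicates 1 to 4 of ApcMin. It was the only one of 29 members whose ApcMin arrays did not overlap between the ranges (3.45%), against 6.86% of all targets. The difference was 0.56 ± 0.05 (SE, limma adjusted p = 9.38e-09). It was there in every group: the means in replicates 5 to 8 were 10.93 with ATB-346, 10.92 with naproxen and 10.92 with vehicle, against 10.40, 10.35 and 10.36 in replicates 1 to 4. The untested Ifih1 also separated by range in every ApcMin group. Its means in the same order were 6.92, 6.66 and 6.93, against 6.30, 6.14 and 6.07.

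Other genes that rose in replicates 5 to 8 were 3 antiviral effectors, a sensor and Ifi27. Oasl2 read 8.60, 9.05 and 9.36 in replicates 5 to 8, against 8.04, 8.60 and 9.22 in replicates 1 to 4 (0.43 ± 0.14, adjusted p = 0.0225). Ifit2 was 0.27 ± 0.08 higher (adjusted p = 0.00976), Ddx58 0.20 ± 0.06 higher (adjusted p = 0.00985) and Isg20, an RNA exonuclease, 0.22 ± 0.08 higher (adjusted p = 0.0396). Ifi27, a mitochondrial protein long used as a marker of type I interferon, was 0.45 ± 0.17 higher (adjusted p = 0.0353). Ifi27 read 10.21, 10.87 and 11.21 in replicates 5 to 8, against 9.65, 10.41 and 11.09 in replicates 1 to 4. Isg20 passed in 11 and Ifi27 in 15 of the 24 fits that left out a single array. Calls for Irgm1, Oasl2, Ifit2 and Ddx58 passed in all 24 such fits.

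Genes that fell in replicates 5 to 8 were transcription factors, a proteasome subunit and Parp14. Irf1, the founding member of its family and a driver of the interferon gamma response, read 10.34, 10.52 and 10.80 in replicates 5 to 8, against 10.37, 10.78 and 10.95 in replicates 1 to 4 (-0.24 ± 0.06, adjusted p = 0.00654). The gap was widest with naproxen, where replicates 5 and 6 averaged 10.37 and replicates 1 to 4 averaged 10.83. Irf9 differed by -0.25 ± 0.08 (adjusted p = 0.0231), with means of 7.99 and 8.46 in the naproxen ranges but 8.45 in both ranges with ATB-346. Parp14 differed by -0.28 ± 0.08 (adjusted p = 0.00973) and Psmb8 by -0.25 ± 0.09 (adjusted p = 0.0275). Irf9 no longer passed without naproxen replicate 6, and Psmb8 without vehicle replicate 1, vehicle replicate 8, naproxen replicate 5 or naproxen replicate 6. With arrays scaled to the same median, Irf9 (adjusted p = 0.0801), Psmb8 (0.0679) and Ifi27 (0.056) did not pass, and without the filter Isg20 (0.0584) and Ifi27 (0.0558) did not.

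**Figure D3:**
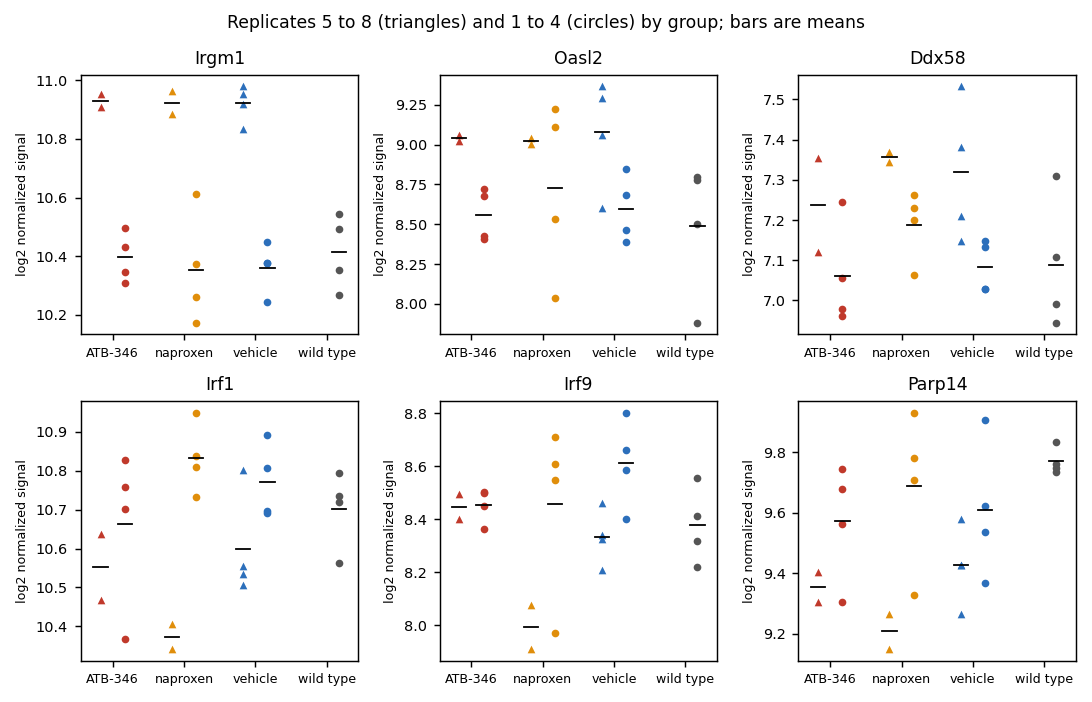
Log2 normalized signal (vertical axes) of 3 members that rose and 3 that fell in replicates 5 to 8, by group. Triangles are replicates 5 to 8, circles replicates 1 to 4 and bars the means; the triangles of Irgm1 lie at 10.84 to 10.98 and its circles at or below 10.61.

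Within the vehicle group alone, 4 arrays against 4, 2 of the 29 members passed, against 17.1% of all targets. Ddx58, Ifi27, Ifit2, Irf1, Irf9, Isg20, Oasl2, Parp14 and Psmb8, called over all groups, did not pass there (limma adjusted p 0.0652 to 0.309). Without vehicle replicates 1 and 2, left out after their B cell and MHC class II markers were seen, 6 passed in the fit over all groups, against 29.9% of all targets, and Ifi27, Irf9, Isg20 and Psmb8 did not. The term for the range left the drug and genotype comparisons without a called member: 0 of 29 for ATB-346 against 0.309% of all targets, and 0 of 29 in each other comparison against 0% of all targets.

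Several of these genes are read by more than 1 probe. Irgm1's probe with a mean level of 11.95 shifted by 0.62 (adjusted p = 1.81e-09), while another at 8.87 shifted by 0.01 (adjusted p = 0.969), and the remaining probe was too dim to test. The probes of Ifit2 shifted by 0.56 and -0.01, and those of Oasl2 by 0.50 and -0.03. In each of these 3 genes 1 tested probe passed and another did not. The 5 probes of Irf1 all shifted downwards, by -0.45 to -0.16, and 3 of them passed. Its brightest probe, at 12.35, had the smallest shift and did not pass (limma adjusted p = 0.0592). Irf9's probe at 7.71 shifted by -0.37 and passed, while the brighter one, at 8.88, shifted by -0.20 and did not (limma adjusted p = 0.0867).

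Ifi27 could not be checked in this way. Its annotated probes shifted by -0.16 and 0.11, and neither passed, although the gene-level value shifted by 0.45. The gene table's mean for Ifi27, 10.58, lies below both probes' means of 11.56 and 11.26, and the sources used here do not say which probes it averages.

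**Figure D4:**
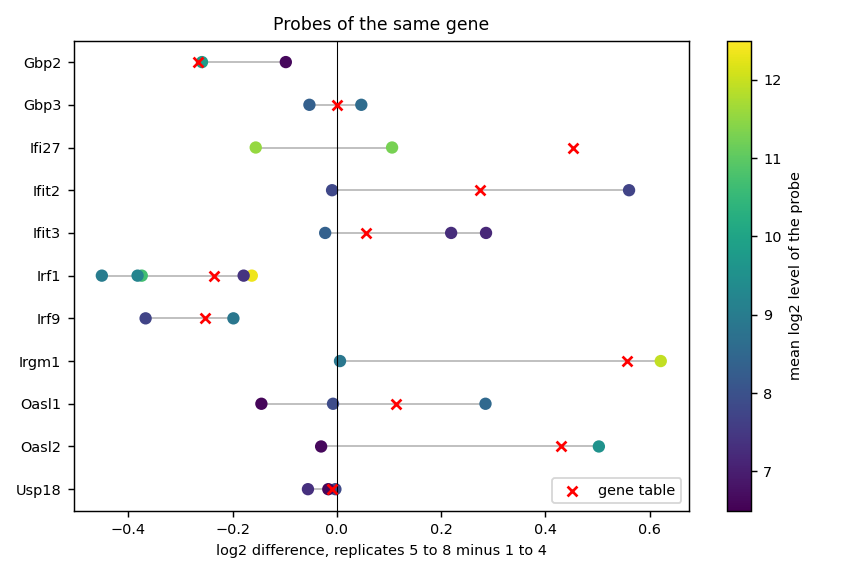
Log2 difference between replicates 5 to 8 and 1 to 4 (horizontal axis) for each tested probe of members with several probes, coloured by the probe's mean level, with the gene table's value as a red cross. Probes of Irgm1 (0.62 and 0.01), Ifit2 (0.56 and -0.01) and Oasl2 (0.50 and -0.03) disagree, and the cross of Ifi27 lies outside its probes.

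Single arrays stood high or low for many members together. Naproxen replicate 1 held the highest value of its group for 14 of 29 members and the highest of all 24 arrays for 6, with a mean deviation of 0.25 from each gene's overall mean. Irf7 (9.00), Isg15 (8.97), Usp18 (7.98) and Ifit3 (8.50) all peaked there. Naproxen replicate 4 was at the other end, lowest of its group for 11 members with a mean deviation of -0.19. In naproxen replicate 2, 23 of 29 members lay above their group mean, against 53.5% of all targets on that array. The 12 T and NK cell markers, 8 of them above the filter, averaged 7.00 in naproxen replicate 1, the highest of the 24 arrays, and its epithelium markers, at 10.99, were the lowest.

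Low arrays occurred in the other groups as well. ATB-346 replicate 3 was lowest of its group for 11 members, with a mean deviation of -0.20, and wild-type replicate 2 was lowest of its group for 18 members. Oasl2 (7.88), Irf7 (7.24) and Usp18 (6.95) were the wild-type minima there. The T and NK cell markers were lowest of all arrays in wild-type replicate 2, at 6.43. In naproxen replicate 4 and ATB-346 replicate 3 they averaged 6.72 and 6.53, neither the lowest of its group. These markers ran from 6.46 to 6.89 with ATB-346, 6.64 to 7.00 with naproxen, 6.54 to 6.86 with vehicle and 6.43 to 6.89 in wild type. The macrophage and monocyte markers did not follow this order. They averaged 8.51 in wild-type replicate 2, the highest of its group, and 8.30 in naproxen replicate 1, against 8.22 to 8.56 in the naproxen group. The part of either set of markers in the members' levels was not tested. Vehicle replicates deviated between -0.08 and 0.09 on average. The spread within the naproxen group for Isg15, 1.67 from lowest to highest, was larger than any difference between its group means.

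**Figure D5:**
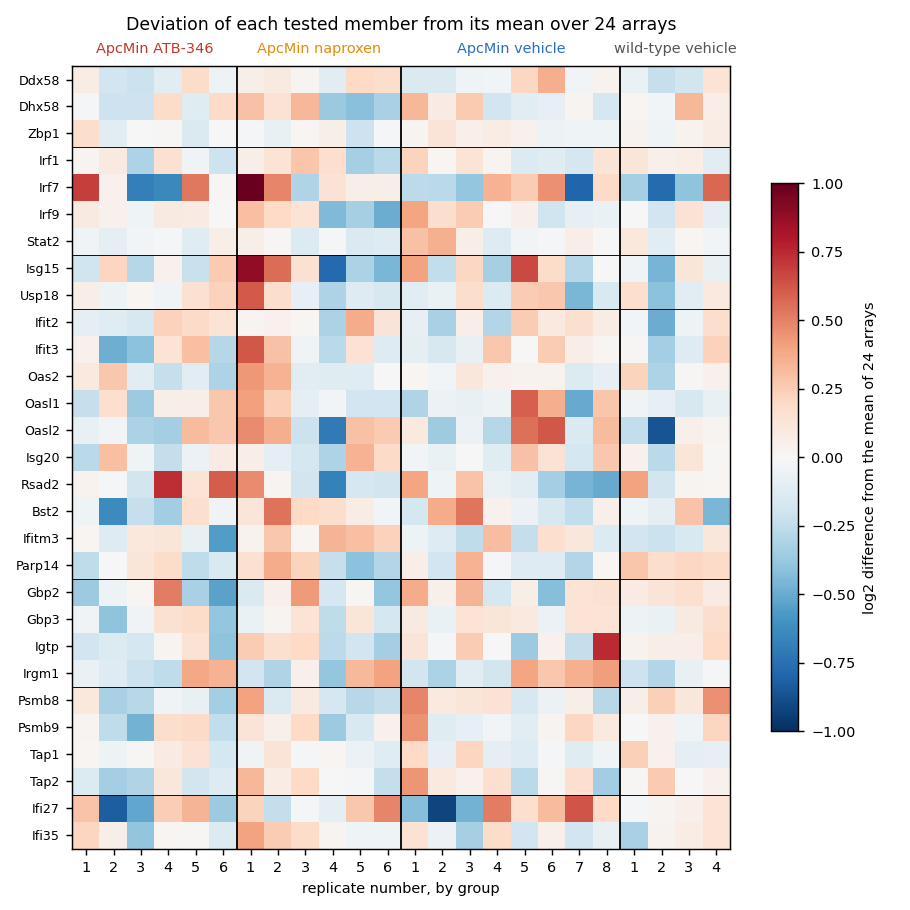
Deviation of each of the 29 tested members (rows, ordered by role) from its mean over 24 arrays (log2, red higher and blue lower), with arrays in columns by group and replicate number. Naproxen replicate 1 is red for many members (mean deviation 0.25), wild-type replicate 2 is mostly blue (-0.15), and Irgm1 turns red in replicates 5 to 8.

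The rest of the pathway was read from lists of other genes. Of 19 interferon ligand genes 17 were in the table, and 1 was bright enough to test, Ifna6 with a mean of 6.65. Of the 13 tested receptors, kinases and factors 0 passed in the drug and genotype comparisons (limma), and at an unadjusted p under 0.05 there were 0 with ATB-346, 1 with naproxen, 0 between the drugs and 1 between the genotypes. After naproxen 11 of these 13 genes were lower, with a median of -0.17 against 0.01 for all targets, and of -0.07 with the term for the replicate range. After ATB-346 11 of the 13 were lower too, with a median of -0.09, and 10 with that term, with a median of -0.08. Both drugs share their vehicle arrays. Ifngr2, a chain of the interferon gamma receptor, differed by -0.23 ± 0.08 (SE, adjusted p = 0.535).

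Genes of MHC class I and peptide loading leaned one way after ATB-346, as did the antigen-processing members. All 12 tested genes of that list were lower than with vehicle (11 with the term for the replicate range), with a median of -0.13 against 0.01 for all targets, and 0 passed, with 2 at an unadjusted p under 0.05. Tapbp, the chaperone tapasin that joins class I molecules to the Tap transporter, differed by -0.30 ± 0.11 (SE, limma adjusted p = 0.502), and H2-M3, a class I molecule that presents bacterial peptides, by -0.21 ± 0.09 (adjusted p = 0.66). Against naproxen all 12 were lower too, with a median of -0.09, and 0 passed, with 1 at an unadjusted p under 0.05. How these values change without vehicle replicates 1 and 2 was not tested. Of 19 further interferon-induced genes, 15 were lower and 4 higher after ATB-346 (median -0.06; 12 and 7 with the term), with 0 called by limma and 1 at an unadjusted p under 0.05.

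Of the 7 tested negative regulators and the 10 tested genes of nucleic acid sensing upstream of interferon 0 passed in these comparisons. At an unadjusted p under 0.05, limma gave 3 negative regulators with naproxen and 1 in each other comparison, and at most 1 nucleic acid sensing gene in any. The counts of every list at that p are to be read against the shares of all targets. These were 6.98% with ATB-346, 8.72% with naproxen, 6.48% between the drugs and 6.43% between the genotypes. Socs3, an inhibitor of Jak kinases, differed by 0.18 ± 0.07 with naproxen (adjusted p = 0.564) and by -0.22 ± 0.07 between ATB-346 and naproxen (adjusted p = 0.71). Between the replicate ranges genes of these lists passed in both directions, at shares to be read against 37.1% of all targets (14.7% higher and 22.4% lower). Jak1 was 1.28 ± 0.08 higher in replicates 5 to 8 (adjusted p = 3.69e-11) and Il10rb, a chain of the interferon lambda receptor, 0.80 ± 0.07 higher (adjusted p = 2.20e-09). In all, 3 of the 13 receptors, kinases and factors rose and 3 fell. Of the nucleic acid sensing genes 1 rose and 4 fell, and of the negative regulators 3 fell. Of the further induced genes 3 rose and 3 fell, and of the MHC class I and peptide-loading genes 1 rose and 3 fell.

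Markers of immune cells, which can carry interferon-stimulated genes themselves, were read on the same arrays. The 13 macrophage and monocyte markers averaged 8.06 to 8.55 with ATB-346, 8.22 to 8.56 with naproxen, 8.24 to 8.58 with vehicle and 8.33 to 8.51 in wild type. The 9 B cell markers averaged 6.05 to 6.26 with ATB-346, 6.09 to 6.24 with naproxen, 6.10 to 6.81 with vehicle and 6.17 to 6.41 in wild type, and 1 of the 9 lay above the filter. The top vehicle values were replicates 1 (6.81) and 2 (6.62), which were also highest for MHC class II (10.01 and 9.76). Vehicle replicate 1 held the highest levels of Psmb8 (7.66), Psmb9 (9.71) and Tap2 (9.35) of all arrays. Pancreatic acinar markers averaged 6.79 to 7.06 with ATB-346, 6.82 to 10.20 with naproxen, 6.92 to 14.04 with vehicle and 6.83 to 7.35 in wild type. Of 8 markers of plasmacytoid dendritic cells, known for making type I interferon, 5 lay above the filter. The mean of the 8 ran from 8.19 to 8.46 with ATB-346, 8.37 to 8.56 with naproxen, 8.37 to 8.63 with vehicle and 8.38 to 8.45 in wild type. The largest signals among them were Klk1 (14.14) and Tcf4 (11.33), so this mean cannot be read as a level of these cells. Bst2 is on that list, while its defining members Siglech and Ccr9, and Cd209d, lay below the filter. The part of these cells in the members' levels was not tested.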

How the data were processed

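Single-colour MouseRef-8 2.0 bead arrays measured RNA of 24 colon samples, grouped by genotype and drug from the labels. The authors deposited the average bead intensity of 18097 gene targets, exported from GenomeStudio 1.7.0 with normalization set to none, per the file headers; no background step is stated. The series matrix, used as an alternative, holds the deposited intensity of 25697 probes on a linear scale, with its settings unstated. Gene-level intensities (41.6 to 36652.2) were corrected here by normexp with an offset of 50, quantile-normalized and log2-transformed (limma 3.58.1, R 4.3.3). Equal distributions hide changes in total RNA, and the offset shrinks differences of dim genes.

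The 9048 targets whose mean exceeded the median mean of 6.54 were tested by lmFit and eBayes with 1 mean per group, with Benjamini-Hochberg adjustment over all of them and a threshold of 0.05. A second model added a term for replicates 5 to 8 against 1 to 4, and it gives the comparison of these ranges. Members and gene lists were chosen with earlier results of these data known. Members given with a difference are those called in a comparison; where fewer than 8 were called, they are the 4 higher and the 4 lower members of smallest p. The 3 members with the largest residual SD and the 3 with the highest mean were described by level. From each other list up to 2 genes with the smallest p were named; 1 further gene is not reported here. Pairs of arrays differed with an SD of at least 0.177 (log2), and each array was counted as 1 sample. The fits were tested on simulated data. Alternatives covered background correction, scaling, the filter, the probe table, the arrays included, the replicate number and leaving out arrays.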

Additional observations from a re-analysis of the deposited data

Results flagged for a closer look

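Groups of 4 to 10 arrays were examined for a lowest or highest array far from the rest, for the 22 members described by level or difference, in 88 groups. The test marked 2 groups, and chance alone marks about 1 in 20. Ifitm3 lay at 11.58 in ATB-346 replicate 6, while the other 5 arrays of that group read 12.00 to 12.25. Tap2 lay at 9.17 in wild-type vehicle replicate 2, while the other arrays of its group read 8.92 to 8.95.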

How the results depend on the processing

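The 0 members called in each drug and genotype comparison stayed 0 under the alternatives run: no background correction, offset 16, scaling of arrays to the same median, no filter, the series matrix's brightest probe, only the groups compared, replicates 1 to 4 or 5 to 8 only, and leaving out each array in turn. Members called between the replicate ranges numbered 10, with 7 to 12 when single arrays were left out, 2 in the ApcMin vehicle arrays alone and 6 without ApcMin vehicle replicates 1 and 2 (an alternative chosen after the data were seen). Over all targets, 0 were called for ATB-346 against vehicle, but 1 with the brightest probe, 6 with the replicate block, 28 with the term for replicates 5 to 8 and 16 in replicates 1 to 4 only. Leaving out single arrays gave 0 to 1 called targets for each drug and for the drugs against each other, 0 to 0 for the genotypes, and 2923 to 3387 between the ranges, where the count of 3358 was 2078 with median scaling and 1549 in vehicle arrays alone. The cause was not tested.

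Directions of uncalled members turned in places. For the genotypes, Irgm1 was -0.0573 with the replicate block, -0.0506 with the range term and -0.0531 in replicates 1 to 4 only, Dhx58 was 0.0179, 0.0190 and 0.0239 in the same fits, and in replicates 1 to 4 only Ddx58 was -0.0043 and Rsad2 0.0764. For ATB-346 against vehicle, Irf7 was -0.0319 with the block and -0.0054 in replicates 1 to 4, Usp18 was -0.0012 with the block, and Bst2 was 0.17 in replicates 5 to 8. Between the drugs, Bst2 was 0.0425 in replicates 5 to 8, and Irf9 was -0.0046 and Usp18 -0.10 in replicates 1 to 4. With the brightest probe, Ifi27 (-0.16) and Ifit2 (-0.0093) turned between the ranges. Without vehicle replicates 1 and 2, Ifit2 (-0.0307) and Irf7 (-0.0194) turned for ATB-346 and Stat2 (-0.0066) for the genotypes. Leaving out single arrays gave a range of -0.12 to 0.00097 for Dhx58 between the genotypes, -0.0109 to 0.0733 for Ifit2 and -0.0903 to 0.19 for Irf7 with ATB-346, and -0.0212 to 0.16 for Usp18 and -0.0061 to 0.0576 for Zbp1 between the drugs.

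Whether replicate numbers pair the arrays was not settled. Of 30 pairs of arrays with the same number, 19 had deviations correlated at r over 0.1, with r between -0.68 and 0.69. Pairs with different numbers were not correlated for comparison, and the deviations still held the difference between the replicate ranges. With the replicate block, called members stayed at 0 in all 4 comparisons, and called targets stayed at 0 except for ATB-346 (6). The 10 dim members were not tested, and near the lowest signal a small shift can be hidden. Ifih1, the brightest of them, averaged 6.93 in vehicle replicates 5 to 8 and 6.07 in vehicle replicates 1 to 4.

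Single arrays also moved some values that did not pass. With naproxen these were Bst2 (0.06 without naproxen replicate 2, 0.21 without vehicle replicate 3), Gbp3 (-0.06 without naproxen replicate 4) and Zbp1 (-0.03 without naproxen replicate 5). Between the drugs they were Ifi35 (-0.10 without ATB-346 replicate 3) and Irf9 (0.07 without naproxen replicate 6, 0.23 without naproxen replicate 1). Between the genotypes they were Ddx58 (0.06 without wild-type replicate 2, 0.19 without wild-type replicate 4), Psmb8 (-0.09 without wild-type replicate 4), Rsad2 (-0.06 without wild-type replicate 1) and Stat2 (0.04 without vehicle replicate 2).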
